A study of Rattus norvegicus with 60 samples.

Results

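The RNA levels of 10 genes of the fibroblasts and connective tissue that wrap the brain were described on 60 Affymetrix arrays of rat brain. The genes were Slc6a13, Slc22a8, Islr, Dpt, Col1a1, Col1a2, Col3a1, Dcn, Lum and Eln. They were chosen by name, and every probe set that the array annotation gives to 1 of these symbols alone was taken. This gave 15 probe sets of the 31042 tested, or 10 of the 14217 genes with a symbol of their own. Slc22a8, Dpt, Col1a1, Col1a2 and Eln have 2 probe sets each and the other 5 genes have 1. The rats were of the SD strain and were treated for 21 days. In one arm, LiCl, a mood stabilizer, was given in the chow at 0.2%, and plain chow was its vehicle (the chow vehicle). In the other arm, lamotrigine, an anticonvulsant also used as a mood stabilizer, was injected under the skin each day at 30 mg/kg, and its vehicle was injected alike (the injection vehicle). Hippocampus, cortex and striatum were taken, which gives 12 groups of 5 arrays. The sources used here give no age and no allele. Values are log2 intensities of a probe set, so levels of different probe sets are not ranked against each other.

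The brain is enclosed by the meninges, sheets of fibroblasts in a collagen-rich matrix that also follow vessels into the tissue. Fibrils of type I collagen, built from the chains of Col1a1 and Col1a2, and of type III collagen, from Col3a1, give these sheets their strength. Dcn (decorin) and Lum (lumican) are small leucine-rich proteoglycans that bind collagen and shape its fibrils, and Dpt (dermatopontin) is a small matrix protein that binds decorin. Islr is a secreted or membrane-bound protein with leucine-rich repeats, found in mesenchymal stromal cells. Eln encodes elastin, the core of elastic fibres, which is also made by arterial smooth muscle. Slc6a13 is a transporter of GABA and taurine, and Slc22a8 carries organic anions. Both are known from the meningeal barrier, and Slc22a8 also from the choroid plexus and brain endothelium. In pieces of tissue, fewer cells of a type and less RNA per cell cannot be told apart.

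The 250 bases before the annotated start of Col1a2 and of Dpt are shown because these genes moved differently from array to array. Col1a2 had the highest mean correlation with the other members, and Dpt had the lowest after Eln. The sequences are from RefSeq on the GRCr8 build, read 5′ to 3′ on the plus strand, at chr4:33518307-33518556 for Col1a2 and chr13:79656091-79656340 for Dpt. Capitals mark CCAAT, or ATTGG where it lies on the other strand, and TATAAA. Both strands were searched, and the motifs did not overlap.
Col1a2: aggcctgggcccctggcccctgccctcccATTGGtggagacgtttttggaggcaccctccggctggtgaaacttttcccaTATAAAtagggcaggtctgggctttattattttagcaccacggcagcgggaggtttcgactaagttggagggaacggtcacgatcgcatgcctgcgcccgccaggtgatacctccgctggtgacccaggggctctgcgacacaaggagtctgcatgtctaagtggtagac
Dpt: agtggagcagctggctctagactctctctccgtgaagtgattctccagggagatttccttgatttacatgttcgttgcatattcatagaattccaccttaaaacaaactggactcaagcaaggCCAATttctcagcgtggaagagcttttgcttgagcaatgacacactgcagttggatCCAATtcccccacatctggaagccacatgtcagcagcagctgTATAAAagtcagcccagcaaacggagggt

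Col1a2 held 1 CCAAT match, on the minus strand, which began 221 bases before the annotated start, and 1 TATAAA match, which began 170 bases before it. Dpt held 2 CCAAT matches, which began 127 and 71 bases before the start, and its TATAAA match began 29 bases before it. Of 33469 rat promoters of the same length, 34% held CCAAT and 12.9% held TATAAA on either strand. The matches are a description of these letters.

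The arrays of each region carried the markers of that region. Of 9 striatum markers, 9 were higher in the striatum than in the hippocampus and than in the cortex, and 7 of 8 hippocampus markers were called higher in the hippocampus than in the cortex. The mean of 8 cortex markers on the vehicle arrays was between 8.243 and 8.475 in the cortex. It was between 7.122 and 7.604 in the hippocampus and between 6.823 and 7.597 in the striatum. Median intensities lay between 93.5 and 101 (linear scale). Choroid plexus markers had a mean log2 level over 12 genes above 7 on 9 arrays, and at most 6.92 on the others. In the striatum these were LiCl replicates 1 (9.20) and 2 (8.90), lamotrigine replicates 3 (8.88) and 5 (9.14) and injection vehicle replicate 2 (8.99). In the hippocampus they were injection vehicle replicates 1 (8.41) and 3 (8.19), LiCl replicate 2 (7.97) and chow vehicle replicate 5 (7.17). No cortex array was among them, but LiCl replicate 2 (6.23) and injection vehicle replicate 5 (6.86) of the cortex were each the outlying highest of their group. Member results are given with and without these arrays where they change a call. The limit of 7 was chosen after the levels were seen.

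The members differed between regions in different orders. Dcn was highest in the hippocampus, Dpt was highest in the cortex, Lum fell in steps from hippocampus to cortex to striatum, and the fibrillar collagens were higher in the cortex than in the striatum. Some calls of Lum, the collagens, Eln and the second Dpt probe set ended under other settings of the analysis. The regional values come from the 10 vehicle arrays of each region (5 chow and 5 injection). They were tested in 1 limma fit of all 60 arrays with the animal as a random block. Dcn was between 8.22 and 9.29 in the hippocampus (median 8.88), between 6.54 and 7.78 in the cortex (median 6.995) and between 6.13 and 7.92 in the striatum (median 6.58). Every hippocampus array lay above every array of the other regions. The hippocampus exceeded the cortex 3.33-fold (cortex minus hippocampus -1.73 ± 0.19 on the log2 scale, SE, adjusted p = 4.54e-11, limma) and the striatum 4.36-fold (striatum minus hippocampus -2.12 ± 0.19, adjusted p = 2.15e-14). The cortex and the striatum did not pass the test against each other (0.39 ± 0.19, adjusted p = 0.0739), although without injection vehicle replicate 2 of the striatum this difference was 0.54 with an adjusted p of 0.00961.

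Lum, the other proteoglycan among the members, had medians of 6.22 in the hippocampus, 5.74 in the cortex and 4.81 in the striatum. Its ranges were 5.80 to 7.02, 4.93 to 6.33 and 4.41 to 5.58, so neighbouring regions overlapped while hippocampus and striatum did not. The cortex was lower than the hippocampus by 0.61 on the log2 scale (cortex minus hippocampus -0.61 ± 0.17, adjusted p = 0.00346) and higher than the striatum (0.89 ± 0.17, adjusted p = 1.21e-05). The striatum differed from the hippocampus by -1.50 ± 0.17 (adjusted p = 8.85e-11). This last call held in all 10 other settings of the analysis. The 2 calls of the cortex each held in 9 of 10, with a highest adjusted p in limma of 0.181 against the hippocampus and 0.053 against the striatum. The list of other small leucine-rich proteoglycans had 9 genes measured. It holds Islr2, which has leucine-rich repeats but is not a proteoglycan of this family. Of the 9, 1, Prelp, was called lower in the cortex than in the hippocampus (-0.46 ± 0.16, adjusted p = 0.0193) and 0 were called higher. In the striatum against the hippocampus, 2 of the 9 were called, both lower: Islr2 (-1.21 ± 0.08, adjusted p = 1.36e-20) and Podn (-0.22 ± 0.06, adjusted p = 0.00224).

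Dpt had another order, with the cortex above the hippocampus. By probe set 1371732_at it was between 5.66 and 6.72 in the cortex (median 6.22), between 4.77 and 5.85 in the hippocampus (median 5.10) and between 3.98 and 5.80 in the striatum (median 4.27). The highest striatum value was injection vehicle replicate 2, the array with a choroid plexus level of 8.99. All other striatum vehicle arrays lay at or under 4.70. The cortex was above the hippocampus by 1.02 ± 0.19 (adjusted p = 1.02e-05) and above the striatum by 1.75 ± 0.19 (adjusted p = 5.28e-12), and the striatum was below the hippocampus by 0.73 (striatum minus hippocampus -0.73 ± 0.19, adjusted p = 0.000952). The second Dpt probe set, 1373947_at, gave smaller differences of the same sign, 0.33 ± 0.09 for cortex minus hippocampus (adjusted p = 0.00173) and 0.49 ± 0.09 for cortex minus striatum (adjusted p = 2.79e-06).

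**Figure D1:**
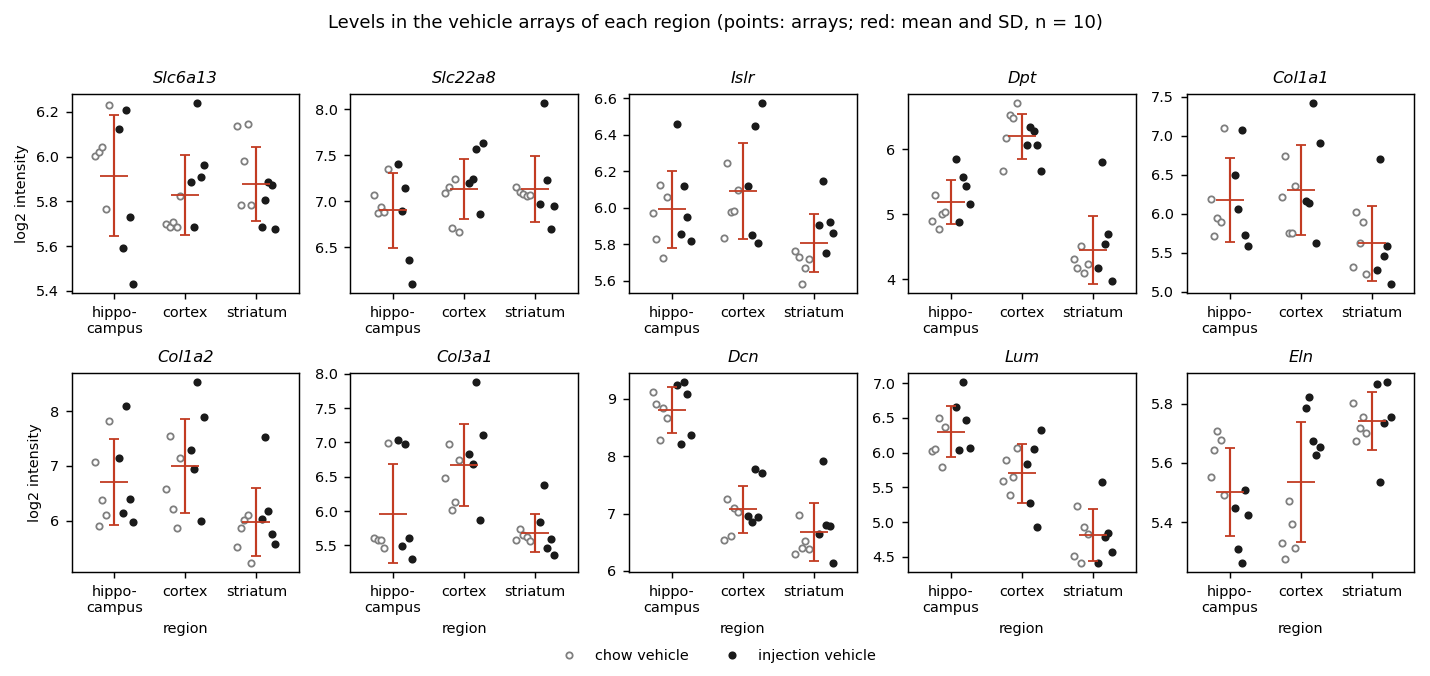
Log2 intensity (y axis) of the 10 genes by region (x axis) in the vehicle arrays, with 1 probe set per gene, the one with the highest mean. Open points are chow vehicle arrays, filled points injection vehicle arrays, and red bars the mean and SD over 10 arrays; Dcn sits above 8 in the hippocampus alone, and Eln shows opposite orders of the vehicle groups in the hippocampus and the cortex.

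The collagen chains varied more within a region and their regional differences were less firm. Col3a1 had a median of 6.71 in the cortex (5.87 to 7.88), 5.59 in the hippocampus (5.30 to 7.04) and 5.61 in the striatum (5.35 to 6.38). It was higher in the cortex than in the hippocampus (0.71 ± 0.26, adjusted p = 0.0223) and the striatum (0.99 ± 0.26, adjusted p = 0.000811). The first of these calls was lost without injection vehicle replicate 3 of the cortex (0.60, adjusted p = 0.0647), and without injection vehicle replicates 2 (0.63, adjusted p = 0.0512) or 5 (0.62, adjusted p = 0.0582) of the hippocampus. It was also lost in chow vehicle arrays alone (0.63, adjusted p = 0.204) and in injection vehicle arrays alone (0.79, adjusted p = 0.0827). Col1a2 was higher in the cortex than in the striatum by 1.02 ± 0.34 (1370155_at, adjusted p = 0.00895) and by 0.75 ± 0.32 (1387854_at, adjusted p = 0.0412), with medians of 7.05 and 5.94 by the first probe set. Col1a1 was higher there by 0.68 ± 0.29 by probe set 1388116_at (adjusted p = 0.0412), while 1370864_at gave 0.15 ± 0.19 (adjusted p = 0.518). The calls of Col1a1 1388116_at and of Col1a2 1387854_at held in 9 and 7 of the 20 fits that left out 1 array. The lowest values in those fits, 0.57 (adjusted p = 0.0996) and 0.64 (adjusted p = 0.0974), both came without injection vehicle replicate 3 of the cortex. Under the other settings of the analysis, the same calls held in 7 of 12 and 7 of 11. The calls of Col1a2 1370155_at and Col3a1 between cortex and striatum held in 9 of 12 and 9 of 11.

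Eln differed little between regions in size, whose SD over 10 arrays was at most 0.20. By 1395753_at the hippocampus was the lowest, with the cortex above it by 0.22 ± 0.07 (adjusted p = 0.00642) and the striatum by 0.26 ± 0.07 (adjusted p = 0.00125). By 1388111_at the striatum was above the hippocampus by 0.24 ± 0.05 (adjusted p = 0.000197) and the cortex below the striatum (-0.21 ± 0.05, adjusted p = 0.000934). For cortex minus hippocampus, the mean over both vehicle groups was 0.03 ± 0.05 (adjusted p = 0.668), but the vehicle groups differed in sign. Chow vehicle arrays alone gave -0.26 (adjusted p = 0.00927) and injection vehicle arrays alone gave 0.32 (adjusted p = 0.000561). The chow vehicle arrays alone gave 0.12 for striatum minus hippocampus (adjusted p = 0.271), and the injection vehicle arrays alone gave -0.04 for cortex minus striatum (adjusted p = 0.705). Slc6a13, Slc22a8 and Islr had no called regional difference, and their medians in the cortex were 5.77, 7.17 (1368461_at) and 6.04.

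Some regional differences that missed the threshold over all vehicle arrays passed it when 1 array was left out. Without injection vehicle replicate 2 of the striatum, the array with the choroid plexus level of 8.99, the striatum was below the hippocampus for Col1a2 1370155_at (-0.90, adjusted p = 0.0257) and Col1a1 1388116_at (-0.69, adjusted p = 0.0463). The cortex was then above the striatum for Islr (0.32, adjusted p = 0.042) and Slc22a8 1385005_at (0.24, adjusted p = 0.0472). Islr also passed there without injection vehicle replicate 2 (0.33, adjusted p = 0.0403) or 4 (0.33, adjusted p = 0.0376) of the cortex, and Dcn without replicate 2 (0.45, adjusted p = 0.0481). For cortex minus hippocampus, Slc22a8 1385005_at passed without injection vehicle replicate 1 of the hippocampus (0.31, adjusted p = 0.0442) or 2 of the cortex (0.32, adjusted p = 0.0348).

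Without the 9 arrays with a choroid plexus level above 7, every regional call held in the same direction. The cortex then also exceeded the hippocampus for both Slc22a8 probe sets (0.43, adjusted p = 0.00838, and 0.37, adjusted p = 0.00519), and its excess for Col3a1 was 1.13 (adjusted p = 0.000699) in place of 0.71. Against the striatum, the cortex was then also higher for Dcn (0.53, adjusted p = 0.00598), Islr (0.32, adjusted p = 0.0367) and Slc22a8 1385005_at (0.23, adjusted p = 0.0416). Col1a2 1370155_at and Col1a1 1388116_at, which passed between striatum and hippocampus without the single striatum array, did not pass without all 9 (adjusted p = 0.285 and 0.345).

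In all, 6 of the 15 probe sets were called between cortex and hippocampus, 4 higher and 2 lower in the cortex, where 42.4% of all probe sets were called. Between striatum and hippocampus 5 were called, 2 higher and 3 lower in the striatum, beside 50.9% of all. Between cortex and striatum 8 were called, 7 higher and 1 lower in the cortex, beside 55.9% of all. These shares of the members are near or under those of all probe sets. The median size of the regional difference was 0.23, 0.26 and 0.39 for the members, in the same order, and 0.12, 0.15 and 0.16 for all probe sets. Of the 11 endothelial markers 11 were called higher in the cortex than in the hippocampus, and of the 12 choroid plexus markers 3 were called lower. The part of these cell types in the regional differences of the members was not tested.

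Within groups the members were among the most variable probe sets of the arrays, apart from Eln and the second Dpt probe set. The SD within groups, pooled over the 12 groups, was 0.86 for Col1a2 (1370155_at), 0.73 for Col1a1 (1388116_at) and 0.67 for Col3a1, against a median of 0.15 over all probe sets. These values stood at the 99.8, 99.7 and 99.6 percentiles of all probe sets. Dcn (0.47), Dpt (0.46, 1371732_at) and Lum (0.44) followed. By 1373947_at, Dpt lay at the 83.8 percentile (0.21). Eln lay at the 25.9 percentile by 1388111_at (0.12) and at the 65 percentile by 1395753_at (0.17). The median over the 15 probe sets was 0.44. The collagens spread most in the hippocampus and the cortex: the SD of Col1a2 was 1.03 and 0.95 there and 0.52 in the striatum.

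**Figure D2:**
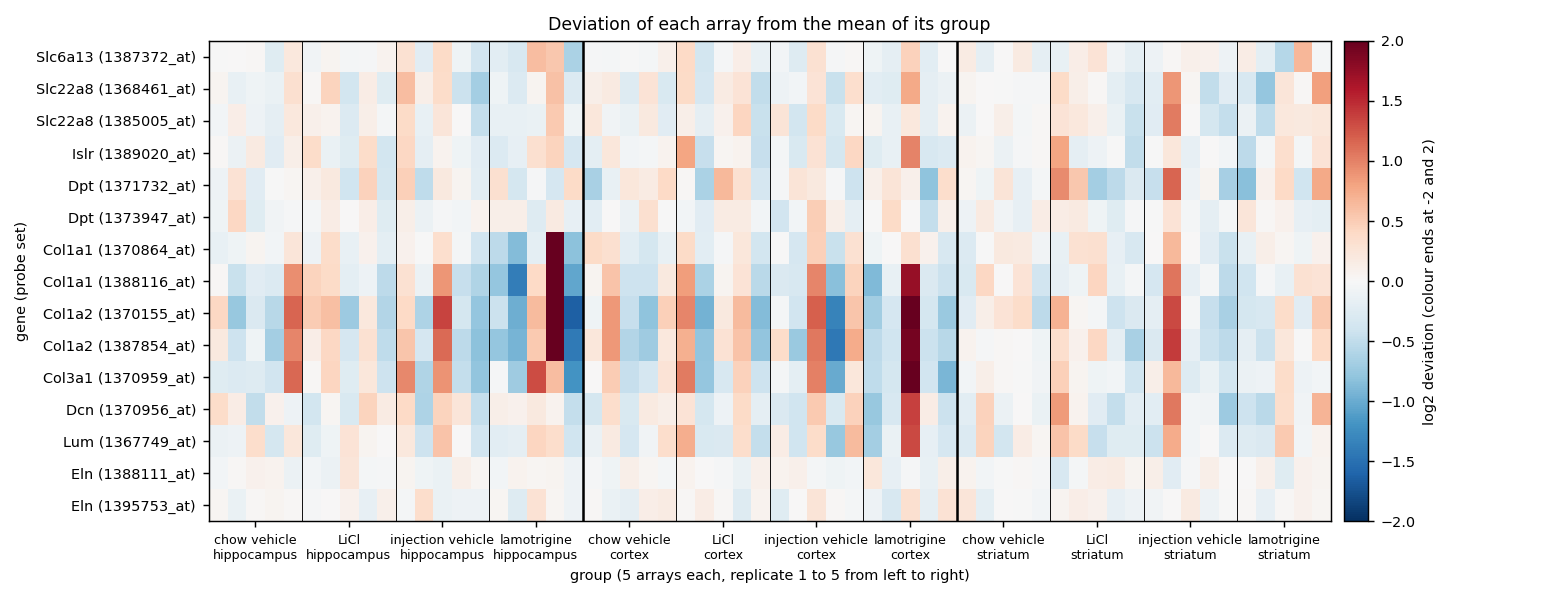
Deviation of each array from its group mean (colour, log2, red higher and blue lower) for the 15 probe sets (rows) on 60 arrays (columns, 5 per group). Whole columns of one colour are arrays on which most members moved together, as on lamotrigine replicate 3 of the cortex and injection vehicle replicate 2 of the striatum; lamotrigine replicate 4 of the hippocampus is darkest for Col1a1 and Col1a2, and Eln stays pale.

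Some arrays lay far from the rest of their group, as lamotrigine replicate 3 of the cortex and 4 of the hippocampus did for the collagens. The spread did not rest on these 2 arrays, since the SD of Col1a2 1370155_at was also between 0.68 and 0.96 in the other 3 groups of the cortex and between 0.62 and 0.88 in those of the hippocampus. On lamotrigine replicate 3 of the cortex (animal 13), Col3a1 was at 8.46 while the other 4 lamotrigine arrays lay between 5.38 and 5.94. On the same array Col1a2 was at 8.63 against 5.76 to 6.16 (1370155_at), Col1a1 at 7.70 against 5.07 to 5.80 (1388116_at), and Dcn at 8.29 against 6.16 to 7.06. This array was the highest of the 20 cortex arrays for Col1a1, Col1a2, Col3a1 and Dcn. Ogn, another small leucine-rich proteoglycan, and Inmt exceeded the other cortex arrays most on it. Ogn was at 9.22 against at most 8.24 on the other 19, and Inmt at 6.52 against at most 5.59. These 2 genes were named after their values were seen. The mean over 26 other meningeal and barrier markers was 7.497 on this array and between 6.33 and 6.51 on the other 4 of its group.

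Lamotrigine replicate 4 of the hippocampus (animal 14) stood apart in another way. Col1a1 was at 9.97 (1388116_at) and 8.96 (1370864_at), and Col1a2 at 10.09 and 9.96, while the highest of the other 19 hippocampus arrays had 7.58 for Col1a1 1388116_at and 8.30 for Col1a2 1370155_at. Col3a1 was at 7.20, under the 7.89 of lamotrigine replicate 3, and Dcn (8.92), Lum (7.03) and Dpt (5.08) lay within the other arrays. The mean of the 26 other meningeal and barrier markers was 7.30 on this array, the highest of the 20 hippocampus arrays, and between 6.55 and 7.07 on the other 4 of its group. Over all 14217 genes, 11 exceeded the highest of the other hippocampus arrays by more than 1 on the log2 scale, and Col1a1 and Col1a2 ranked 5 and 6 among them. The first was Bglap, which encodes osteocalcin of bone (8.44 against at most 4.0), followed by S100a9 (9.04 against at most 4.93), RatNP-3b (6.82 against at most 3.62) and S100a8 (7.32 against at most 4.18). S100a8 and S100a9 are abundant in neutrophils and RatNP-3b is a neutrophil defensin. Ahsp, a partner of alpha globin in red cell precursors, was at 7.01 against at most 5.27. The mean of 5 blood cell markers was 8.71 on this array and between 6.64 and 6.93 on the other 4 lamotrigine arrays. S100a8 and S100a9 are among these 5 markers, so the mean is not separate from their values. Bglap, S100a9, RatNP-3b, S100a8 and Ahsp were named after their values were seen, and their part in the collagen values was not tested.

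**Figure D3:**
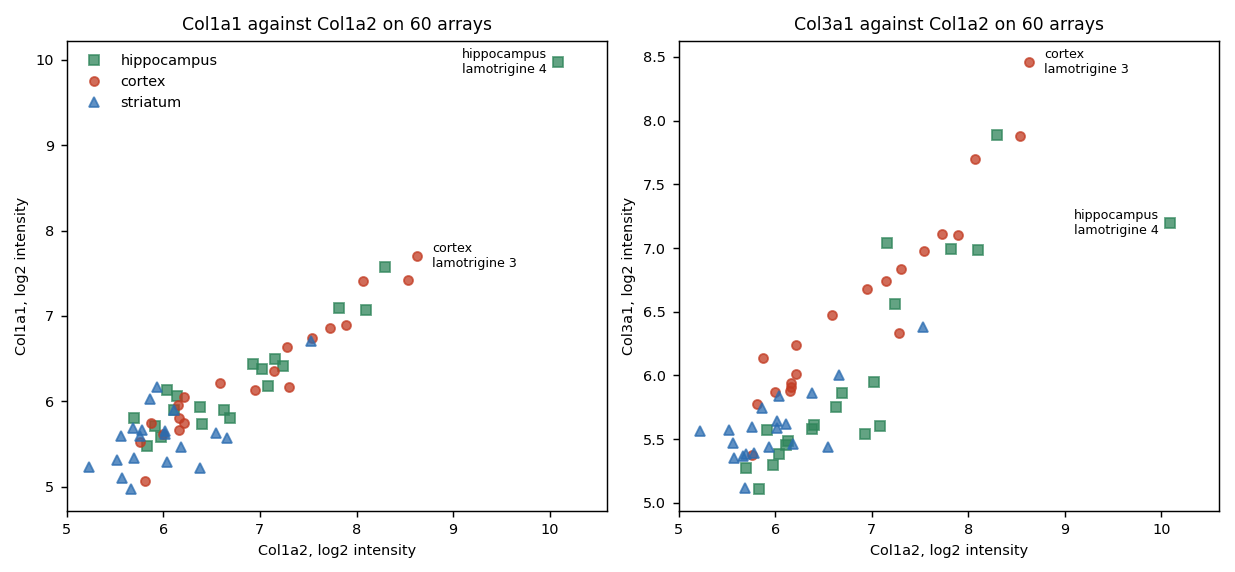
Log2 intensity of Col1a1 (left) and Col3a1 (right) against Col1a2 on the 60 arrays, by region. Col1a1 and Col1a2 rise together up to lamotrigine replicate 4 of the hippocampus (9.97 and 10.09), whereas Col3a1 is at 7.20 on that array, off the line of the others.

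In the striatum, injection vehicle replicate 2 (animal 26) was the highest of 20 arrays for Slc22a8, Dpt, Col1a1, Col1a2 and Col3a1. Slc22a8 was at 8.07 (1368461_at) where the other 4 arrays of the group lay between 6.70 and 7.22, and Col1a2 was at 7.53 against 5.57 to 6.18. This was the array with the choroid plexus level of 8.99. LiCl replicate 1 of the striatum (animal 33) was the highest of its region for Islr, Dcn and Lum, and its choroid plexus level of 9.20 was the highest of the 60 arrays. LiCl replicate 1 of the cortex, also animal 33, was the highest of its region for Slc6a13, Slc22a8, Islr and Lum.

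LiCl against chow vehicle was asked in each region. In the cortex Slc6a13, Slc22a8 and Eln rose and Dpt fell. Slc6a13 read 6.69, 5.92, 6.27, 6.42 and 6.13 on the LiCl arrays and 5.70, 5.68, 5.71, 5.69 and 5.82 on the chow vehicle arrays. The groups did not overlap, and the chow vehicle arrays lay close together. The share of all probe sets without overlap is not given here for any comparison. In this one 9478 of all 31042 had an unadjusted p under 0.05. Slc6a13 rose by 0.57 ± 0.13 on the log2 scale, or 1.48-fold (adjusted p = 0.0106, limma). Eln (1388111_at) read 5.98, 5.92, 5.89, 5.78 and 6.02 with LiCl and 5.33, 5.28, 5.47, 5.39 and 5.31 with chow vehicle, again without overlap. It rose by 0.56 ± 0.08, or 1.47-fold (adjusted p = 0.00159), whereas its other probe set, 1395753_at, gave 0.09 ± 0.12 (adjusted p = 0.667), with overlapping groups. The mean of the 2 Eln probe sets gave 0.32 (adjusted p = 0.0238).

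Slc22a8 (1368461_at) read 7.97, 7.25, 7.76, 7.86 and 7.10 with LiCl and 7.09, 7.16, 6.71, 7.24 and 6.66 with chow vehicle. LiCl replicate 5 lay within the chow vehicle arrays. The rise was 0.62 ± 0.20, or 1.53-fold (adjusted p = 0.0392), and the other probe set, 1385005_at, gave 0.31 ± 0.15 (adjusted p = 0.164). Dpt (1371732_at) read 5.59, 4.94, 6.21, 5.88 and 5.24 with LiCl and 5.67, 6.17, 6.54, 6.49 and 6.72 with chow vehicle, and it fell 1.67-fold (-0.74 ± 0.23, adjusted p = 0.0371). LiCl replicates 3 and 4 lay above the lowest chow vehicle array, so the groups overlapped. Its other probe set gave -0.25 ± 0.15 (adjusted p = 0.269).

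The other members did not pass the test in the cortex. Islr read 7.47, 6.22, 6.72, 6.75 and 6.22 with LiCl and 5.83, 6.25, 5.98, 5.98 and 6.10 with chow vehicle (0.65 ± 0.23, adjusted p = 0.0629). It passed without LiCl replicate 2 (0.76, adjusted p = 0.0419), with array weights (0.70, adjusted p = 0.0232) and in the 60-array fit (0.65, adjusted p = 0.0237). For the collagens the changes were 0.41 ± 0.51 for Col1a2 (1370155_at, adjusted p = 0.606), 0.42 ± 0.39 for Col1a1 (1388116_at, adjusted p = 0.483) and 0.18 ± 0.44 for Col3a1 (adjusted p = 0.81). Those of Dcn and Lum were 0.35 ± 0.28 (adjusted p = 0.423) and 0.32 ± 0.30 (adjusted p = 0.496). With 4 of 15 probe sets called, 3 higher and 1 lower, the members stood beside 13.4% of all probe sets. In all 13 of the 15 changes were above 0, with a median of 0.37, while the median over all probe sets was 0.00 and the median size 0.12. That background was not matched to the members in intensity. Of the 15 member probe sets 8 had a mean under 6. When such probe sets were left out, the number called higher over all fell from 1619 to 635, and the number called lower went from 2545 to 2788.

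**Figure D4:**
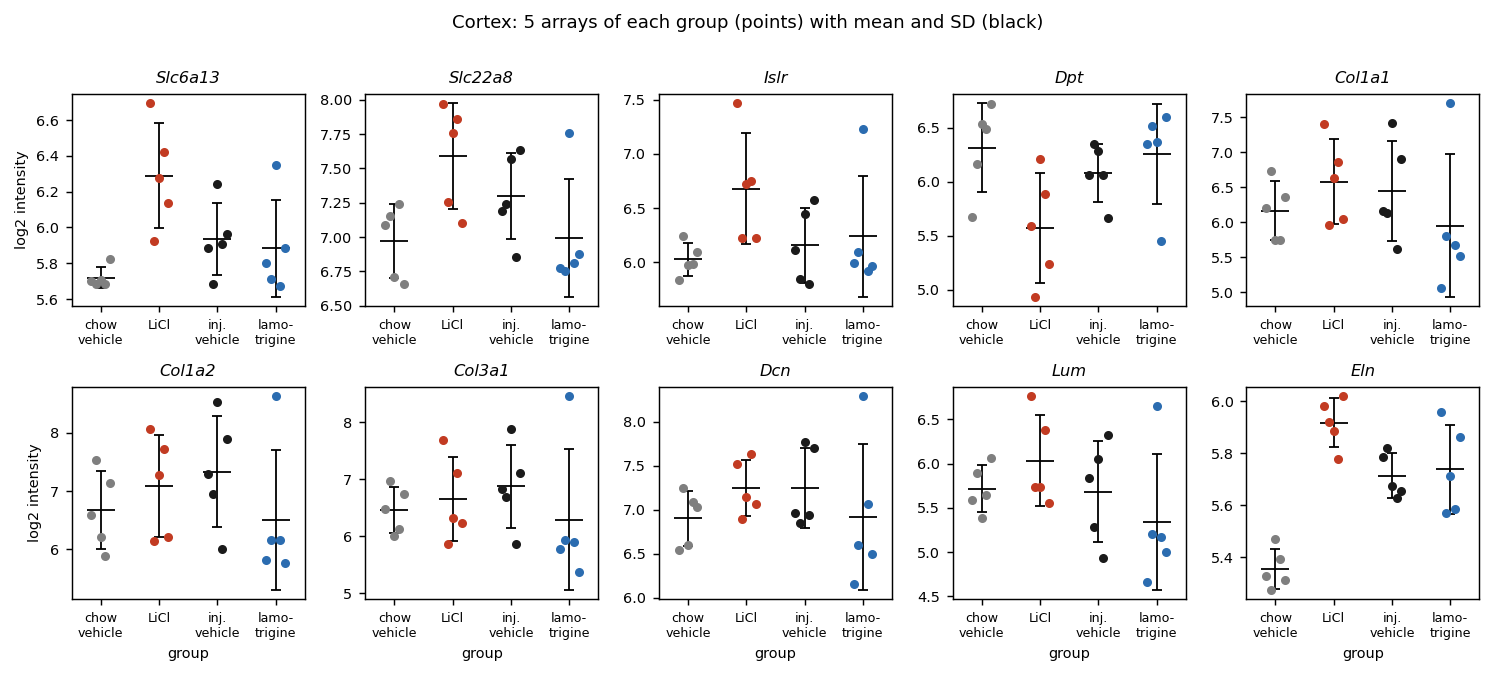
Log2 intensity (y axis) of the 10 genes on the 20 cortex arrays by group (x axis), points for arrays, black bars for mean and SD (n = 5). The LiCl arrays of Slc6a13 and Eln lie above all chow vehicle arrays, and lamotrigine replicate 3 lies far above the rest of its group for the collagens, Dcn and Lum.

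These calls had limits. The distribution of log2 values was narrower on the LiCl arrays of the cortex (interquartile range 3.37 ± 0.06, SD, n = 5) than on the chow vehicle arrays (3.58 ± 0.02). With that range as a covariate none of the 4 calls held: Slc6a13 gave 0.71 (adjusted p = 0.346), Slc22a8 1.13 (adjusted p = 0.297), Eln 0.32 (adjusted p = 0.425) and Dpt -0.98 (adjusted p = 0.435). The range differed between the groups by more than its spread within them, so this fit cannot tell the range from LiCl. In it 0 of all probe sets were called, beside 4164 without the covariate. Slc6a13 and Eln were called in all 10 fits that left out 1 array, Slc22a8 in 4 and Dpt in 3. For Slc22a8 the call was lost without LiCl replicate 1 (0.52, adjusted p = 0.105), 3 (0.57, 0.0864) or 4 (0.55, 0.0836) and without chow vehicle replicate 2 (0.66, 0.0534), 3 (0.55, 0.0897) or 5 (0.54, 0.084). For Dpt it was lost without LiCl replicate 1 (-0.75, adjusted p = 0.0678), 2 (-0.58, 0.0915) or 5 (-0.66, 0.0947) and without chow vehicle replicate 2 (-0.78, 0.0559), 3 (-0.69, 0.0784), 4 (-0.70, 0.0814) or 5 (-0.64, 0.0817). The Slc22a8 call also ended in the 60-array fit (0.61, adjusted p = 0.0616), with quantile normalization (0.67, 0.0544) and for the mean of its 2 probe sets (0.47, 0.0606). The Dpt call also ended in the 60-array fit (-0.74, adjusted p = 0.0624) and for the mean of its 2 probe sets (-0.50, 0.0624).

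Several marker lists leaned to one side between LiCl and chow vehicle in the cortex, where 13.4% of all probe sets were called. The called shares of the meningeal, mural, microglia and oligodendrocyte lists were under that. Over all probe sets 1619 were called higher and 2545 lower with LiCl. When probe sets with a mean under 6 were left out, these counts were 635 and 2788. The markers of the cortex itself were lower with LiCl: their mean was between 7.96 and 8.13 with LiCl and between 8.26 and 8.35 with chow vehicle, without overlap. Of the 8 measured, 7 had a change below 0 (median -0.32) and 3 were called lower, Cux2 (-0.55 ± 0.13, adjusted p = 0.0111), Lamp5 (-0.37 ± 0.10, adjusted p = 0.0247) and Fezf2 (-0.36 ± 0.08, adjusted p = 0.00859). Of 10 neuron markers 9 had a change below 0 and 2 were called lower, while 11 of 11 microglia markers and 9 of 9 oligodendrocyte markers had a change above 0 and 0 were called. Other lists were higher with LiCl. Of 26 other meningeal and barrier markers, 24 had a change above 0 (median 0.26) and 2 were called, Cyp1b1 (0.39 ± 0.11, adjusted p = 0.0253) and Thbs2 (0.32 ± 0.09, adjusted p = 0.0203). Their summed level, as a mean, was between 6.66 and 7.24 with LiCl and between 6.45 and 6.93 with chow vehicle. Choroid plexus markers were between 5.86 and 6.23 with LiCl and between 5.56 and 5.79 with chow vehicle, without overlap. Of the 12 measured, 11 had a change above 0 and 2 were called, Prlr (0.44 ± 0.10, adjusted p = 0.00756) and Aqp1 (0.34 ± 0.08, adjusted p = 0.0143). Mural cell markers lay between 6.51 and 6.79 with LiCl and between 6.42 and 6.69 with chow vehicle, and 2 of 15 were called, both higher: Anpep (0.40, adjusted p = 0.0139) and Des (0.30, adjusted p = 0.0349). The part of tissue and cell types in the member calls was not tested beyond leaving out the 2 cortex arrays outlying in choroid plexus markers. Without them Slc6a13, Slc22a8 and Eln were called, Islr passed as well (0.76, adjusted p = 0.0415), and Dpt gave -0.58 (adjusted p = 0.087).

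Other matrix genes were counted in lists. Of the 9 genes on the list of other small leucine-rich proteoglycans, which also holds Islr2, 8 had a change above 0 with LiCl in the cortex. Of these genes 3 were called, all higher: Podn (0.41 ± 0.10, adjusted p = 0.012), Bgn, or biglycan (0.38 ± 0.12, adjusted p = 0.0409), and Chad (0.30 ± 0.09, adjusted p = 0.0303). Of 15 elastic fibre genes 2 rose, Ltbp2 (0.34 ± 0.11, adjusted p = 0.0387) and Mfap2 (0.26 ± 0.08, adjusted p = 0.0323), a microfibril protein. Of 16 genes on the list of other fibrillar and beaded collagens Col15a1 alone was called (0.34 ± 0.11, adjusted p = 0.0492). Col15a1 is itself neither a fibrillar nor a beaded collagen. Of 18 genes of collagen processing and crosslinking, Sparc (0.31 ± 0.09, adjusted p = 0.0298), a collagen-binding protein, and Plod3 (0.22 ± 0.06, adjusted p = 0.0222), a lysyl hydroxylase, rose. Of 15 basement membrane genes Lama1 rose (0.46 ± 0.11, adjusted p = 0.0106). Of 13 genes of TGF beta signalling, Smad6 rose (0.27 ± 0.07, adjusted p = 0.0216) and Smad2 fell by 0.27 (adjusted p = 0.0183). Of 15 matrix proteases and inhibitors and 13 related transporters of GABA and organic anions, 0 were called, and the largest changes were those of Timp4 (0.29, adjusted p = 0.108) and Slc22a2 (0.29, adjusted p = 0.0817). Apart from the proteoglycans, these lists were called in shares near or under the 13.4% of all probe sets.

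In the hippocampus 0 of 15 probe sets were called with LiCl by limma, beside 0.235% of all. An unadjusted p under 0.05 was found for 2, Eln 1388111_at and Lum, beside 4827 of all 31042. Slc6a13 read 5.75, 5.89, 5.79, 5.80 and 5.90 with LiCl and 6.005, 6.02, 6.04, 5.77 and 6.23 with chow vehicle (-0.19 ± 0.19, adjusted p = 0.67). Eln (1388111_at) read 5.30, 5.24, 5.59, 5.32 and 5.34 against 5.55, 5.64, 5.71, 5.68 and 5.49 (-0.26 ± 0.08, adjusted p = 0.134). Lum, at 0.38 ± 0.19 (adjusted p = 0.322), and Islr were among the 3 with a change above 0. In the striatum also 0 were called with LiCl, beside 0% of all, and 2 had an unadjusted p under 0.05, beside 3828 of all 31042. The 2 were Dcn (0.70 ± 0.29, adjusted p = 0.347) and Eln 1388111_at (-0.30 ± 0.09, adjusted p = 0.245). Eln read 5.11, 5.38, 5.57, 5.59 and 5.49 with LiCl and 5.80, 5.67, 5.72, 5.76 and 5.70 with chow vehicle, without overlap and with the order of the cortex turned round. LiCl replicates 1 and 2 of the striatum were among the arrays high in choroid plexus markers. Without the arrays above 7, the change was 0.39 for Dcn (adjusted p = 0.682), -0.18 for Eln 1388111_at (adjusted p = 0.667) and -0.13 for Dpt 1371732_at (adjusted p = 0.9), which was 0.36 with them.

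Whether the LiCl effect differed between regions was tested directly. It did for 2 of 15 probe sets, beside 17.2% of all: Eln 1388111_at (adjusted p = 1.42e-07, F test in limma) and Slc6a13 (adjusted p = 0.0291). Eln changed by 0.56 in the cortex, -0.26 in the hippocampus and -0.30 in the striatum, and Slc6a13 by 0.57, -0.19 and -0.06. Dpt 1371732_at, at -0.74 in the cortex and 0.36 in the striatum, had an adjusted p of 0.0763, and it passed without LiCl replicate 3 (0.0394) or chow vehicle replicate 1 (0.0411) of the cortex or LiCl replicate 3 (0.0301) or 4 (0.0439) of the striatum. The Slc6a13 call ended when cortex LiCl replicate 1 (adjusted p = 0.089), cortex LiCl replicate 4 (0.0562) or cortex chow vehicle replicate 4 (0.0537) was left out, and with quantile normalization (0.0753). With the interquartile range of log2 values as a covariate neither call held (0.866 for Slc6a13 and 0.243 for Eln). That fit called 8 of all probe sets, beside 5348 without the covariate. The range differed between the LiCl and chow vehicle groups of the cortex, so the fit cannot tell the range from LiCl. Without the 9 arrays above a choroid plexus level of 7 both calls held (0.0374 for Slc6a13 and 8.26e-07 for Eln), and Dpt 1371732_at had an adjusted p of 0.286. For lamotrigine 0 of 15 differed between regions, beside 0% of all. An unadjusted p under 0.05 was found for 5 probe sets of 3 genes, beside 1715 of all 31042.

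**Figure D5:**
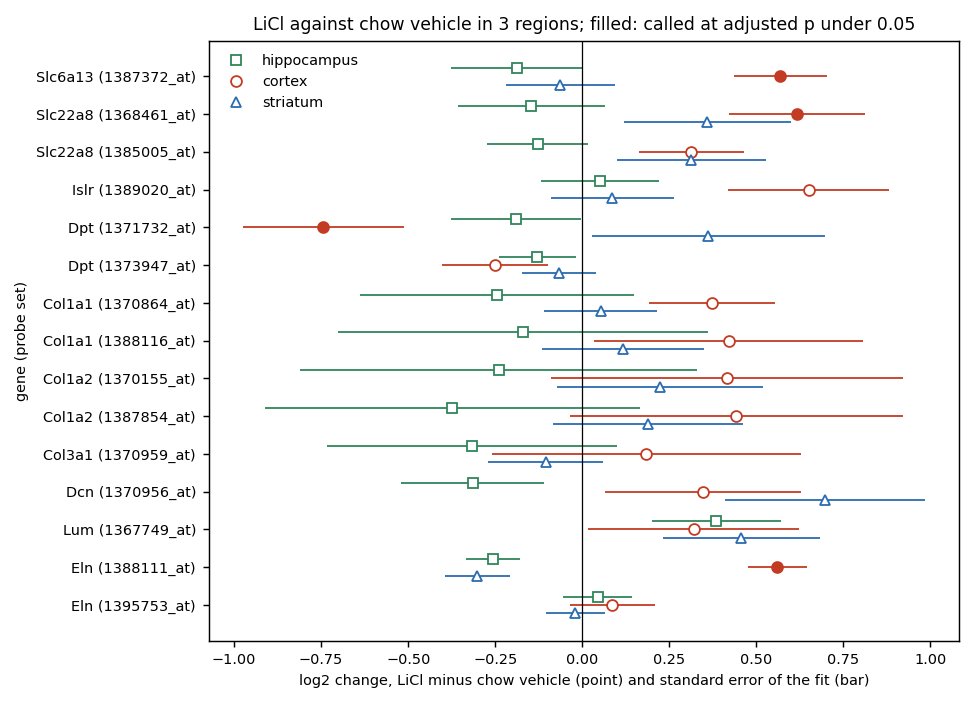
Log2 change, LiCl minus chow vehicle (x axis, bars the SE of the fit, 5 arrays in each group), of the 15 probe sets (y axis) in hippocampus (squares), cortex (circles) and striatum (triangles), filled where called. The 4 filled points are all in the cortex, and Eln 1388111_at lies above 0 there and below 0 in the other regions.

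Lamotrigine against injection vehicle gave 0 called members in every region by limma. In the hippocampus 0.00322% of all probe sets were called, in the cortex 0% and in the striatum 0%, and 3, 1 and 0 member probe sets had an unadjusted p under 0.05. Over all 31042 probe sets, 3063, 1799 and 1193 had such a p, in the same order. The 3 of the hippocampus were of 2 genes, Slc6a13 and Eln. Col1a1 (1388116_at) read 6.41, 5.80, 7.58, 9.97 and 6.13 with lamotrigine in the hippocampus and 6.49, 6.06, 7.07, 5.73 and 5.59 with injection vehicle. The change of 0.99 (adjusted p = 0.557) became 0.29 without lamotrigine replicate 4 (adjusted p = 0.858), and that of Col1a2 1370155_at went from 0.92 to 0.31. Without the hippocampus arrays above a choroid plexus level of 7, among them injection vehicle replicates 1 and 3, the change of Col1a2 by its other probe set, 1387854_at, went from 0.95 to 1.51 (adjusted p = 0.534) and that of Col3a1 went from 0.50 to 1.11 (adjusted p = 0.455). Eln 1388111_at read 5.61, 5.73, 5.71, 5.72 and 5.57 against 5.45, 5.31, 5.26, 5.51 and 5.42, without overlap (0.28 ± 0.08, adjusted p = 0.259), and 1395753_at gave 0.31 ± 0.10 (adjusted p = 0.299).

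In the cortex the differences were larger without the array that stood apart. Col1a2 (1370155_at) read 5.81, 6.16, 8.63, 6.16 and 5.76 with lamotrigine and 7.30, 6.95, 8.53, 6.0 and 7.89 with injection vehicle. The difference was -0.83 (adjusted p = 0.89) with replicate 3 and -1.36 ± 0.43 (adjusted p = 0.265) without it. Col3a1 went from -0.58 to -1.12 ± 0.33 (adjusted p = 0.25), Col1a1 1388116_at from -0.50 to -0.93 ± 0.31 (adjusted p = 0.292), Dcn from -0.33 to -0.67 ± 0.21 (adjusted p = 0.269) and Slc22a8 1368461_at from -0.30 to -0.49 ± 0.17 (adjusted p = 0.316). None passed the test either way. The 26 other meningeal and barrier markers had 21 changes below 0 in this comparison (median -0.19), and 0 were called.

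The difference between the LiCl effect and the lamotrigine effect was called for 0 members in each region, beside 0% of all probe sets in the hippocampus, 0.0129% in the cortex and 0% in the striatum. In the cortex 7 probe sets of 5 genes had an unadjusted p under 0.05, led by Eln 1388111_at (0.53 ± 0.12, adjusted p = 0.0948), Slc22a8 1368461_at (0.92 ± 0.28, adjusted p = 0.165) and Slc6a13 (0.62 ± 0.19, adjusted p = 0.168). Of all 31042 probe sets 4487 had such a p there. Without lamotrigine replicate 3 of the cortex Slc22a8 passed (1.11, adjusted p = 0.0483). In the hippocampus Eln gave -0.53 ± 0.11 (adjusted p = 0.0763), which passed without chow vehicle replicate 5 (-0.56, adjusted p = 0.0447). There 2 member probe sets had an unadjusted p under 0.05, beside 4468 of all. In the striatum 1 had, Eln 1388111_at (-0.40 ± 0.13, adjusted p = 0.536), beside 2485 of all.

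The vehicles were set against each other to see how far the arms differed without a drug. They differ in route and in animals, and whatever else differed between the arms cannot be told apart from these. In the hippocampus Eln 1388111_at was lower with the injection vehicle (-0.23 ± 0.08, adjusted p = 0.0457), the only one of 15 called, beside 18.5% of all probe sets. That call held in 2 of the 10 fits that left out 1 array. It was lost without injection vehicle replicate 1 (-0.24), 2 (-0.21), 3 (-0.19) or 5 (-0.23) and without chow vehicle replicate 1 (-0.24), 2 (-0.22), 3 (-0.20) or 4 (-0.21), and without the arrays above a choroid plexus level of 7 (-0.23, adjusted p = 0.118). The other Eln probe set, 1395753_at, passed without injection vehicle replicate 2 (-0.35, adjusted p = 0.0106). In the cortex Eln 1388111_at was higher, reading 5.79, 5.82, 5.68, 5.63 and 5.65 with injection vehicle (0.36 ± 0.08, adjusted p = 0.00456), again the only call, beside 18.9% of all. Without injection vehicle replicate 3 of the cortex, Dpt 1373947_at was called too (-0.46, adjusted p = 0.0293). In the striatum 0 were called, beside 6.83% of all, and 0 had an unadjusted p under 0.05, beside 6289 of all 31042. This comparison shares the chow vehicle arrays with LiCl against chow vehicle. In the cortex Eln 1388111_at exceeded the chow vehicle by 0.56 with LiCl and by 0.36 with the injection vehicle, and the second Eln probe set gave 0.09 and -0.17.

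From array to array most members moved together. The deviations from the 12 group means were correlated over the 60 arrays, given as a description, since arrays of 1 animal and 1 region share tissue. Col1a1 and Col1a2 had r = 0.918 (Spearman's rho 0.887), Col1a2 and Col3a1 r = 0.871 (rho 0.892), Col3a1 and Lum r = 0.784 (rho 0.725) and Dcn and Lum r = 0.764 (rho 0.716). Of 45 pairs 24 had r above 0.5. Without the arrays farthest from the median of either gene, the first pair kept r = 0.892 over 58 arrays. Within regions, Islr and Col3a1 had r = 0.901 in the cortex, 0.694 in the hippocampus and 0.706 in the striatum, and Slc6a13 and Col3a1 had 0.817, 0.887 and -0.242.

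Eln and Dpt moved apart from the rest. Eln had r below 0 with 8 of the 9 other members, down to -0.462 with Dcn. Its 2 probe sets had r = 0.0386 with each other, against 0.958 for the 2 of Col1a2, 0.855 for Col1a1, 0.807 for Slc22a8 and 0.434 for Dpt. Dpt had r = 0.118 with Col1a1 and 0.476 with Dcn, and in the striatum 0.833 with Dcn. With the mean of 12 choroid plexus markers, Slc22a8 had r = 0.672, Dpt 0.644, Dcn 0.558, Slc6a13 0.0238 and Eln -0.528. With the mean of the 26 other meningeal and barrier markers, Col1a2 had r = 0.868, Slc22a8 0.831, Dpt 0.496 and Eln -0.436.

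The 10 genes whose deviations were most like the mean of the members over the 60 arrays, of 14207 compared, were Ifitm2 (r = 0.937), Ifitm1 (0.925), Slc6a20a (0.911), Crabp2 (0.9), Ptgds (0.883), Colec12 (0.873), Anxa2 (0.844), Gng11 (0.818), Sned1 (0.812) and Aldh1a2 (0.8). The median r over all compared genes was -0.0395, and 1.79% had r above 0.5. Without the 2 arrays farthest from the median of the members' mean, Ifitm2 kept r = 0.926 and Aldh1a2 0.719. Of the 10, Crabp2, Ptgds, Anxa2 and Aldh1a2 were on the list of other meningeal and barrier markers.

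Whether an animal high in a member in one region was also high in another could be asked in the injection arm, where the same 10 animals gave all 3 regions. Animal 13 was highest of the hippocampus for Slc6a13, Col3a1 and Lum and highest of the cortex for Col1a1, Col1a2, Col3a1 and Dcn, and animal 27 had Col1a2 at 8.10 in the hippocampus and 8.53 in the cortex. Over 30 relations (10 genes, 3 pairs of regions) 21 had r above 0, and 0 passed after Benjamini-Hochberg adjustment, in an exact two-sided permutation test over the 14400 pairings within groups, whose smallest p is 6.94e-05. The lowest unadjusted p of r was that of Col3a1 between hippocampus and cortex, with r = 0.694 (exact permutation p = 0.0366, adjusted 0.832) and rho = 0.491 (exact permutation p = 0.179, adjusted 0.719). Without the 2 animals farthest from the median in the hippocampus, its r was 0.557 over 8 animals. The lowest p of rho was that of Dpt between cortex and striatum, with rho = 0.721 (exact permutation p = 0.0313, adjusted 0.504) and r = 0.561 (exact permutation p = 0.104, adjusted 0.832), and its r was 0.618 over 8 animals.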

How the data were processed

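RNA was measured on Affymetrix arrays, 1 per sample, in 3 regions of rats. Per the submitters' processing notes, the authors computed the deposited values with RMA in R 2.7.2, that is background correction, normalization between arrays and 1 value per probe set. The deposited table holds linear intensities (6.93 to 28582.45) where tests had been planned for log2 values, so log2 was taken with no pseudocount. RMA shrinks differences at low intensity, and 8 of the 15 member probe sets had a mean log2 value under 6. No depth applies to arrays, and precision is limited by 5 arrays per group.

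Groups came from the labels alone. One label field names the tissue as mouse and one a constant delivery, while organism, strain and design give rat and daily injection. Numbers in the sample descriptions, read as animal numbers, give 24 animals. They are shifted in the hippocampus of the chow arm, and nothing else says that samples are separate animals, so p-values measure the spread between these samples. Of 31099 probe sets, 57 controls were left out. Symbols come from the platform's annotation, which can be old (20826 probe sets with 1 symbol, 436 with several, 9780 unnamed here), and all 10 member symbols matched RefSeq.

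The 20 arrays of a region were fitted together in limma (version 3.58.1, R 4.3.3), with an intensity trend in eBayes. Regions, and differences of an effect between regions, were tested on all 60 arrays at once, where the animal was a random block and the consensus correlation was 0.133. Tests were two-sided, adjusted by Benjamini and Hochberg over 31042 probe sets and called at an adjusted p under 0.05. The script was tested on simulated data. The members and the 20 gene lists were chosen with earlier results of these data known. For lists, 1 probe set per gene stood in (the highest mean), and called genes with the largest changes, at most 4 per list and comparison, or the 2 largest changes where none was called, were named. Likeness was Pearson's r of deviations from group means. Promoters were matched by symbol for 5 of 10 members. A sensitivity analysis changed 1 choice at a time.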

Additional observations from a re-analysis of the deposited data

Results flagged for a closer look

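In 180 sets of 5 arrays (15 probe sets in 12 groups) the highest or lowest array was set against the others, and 21 values on 13 arrays lay past the 95% limit for 5 values. Chance alone puts about 1 in 20 sets past it.

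Of these, 7 were on lamotrigine replicate 3 of the cortex, all high: Slc22a8 at 7.76 (1368461_at), Islr at 7.23, Col1a1 at 7.70 (1388116_at), Col1a2 at 8.63 (1370155_at) and 8.03 (1387854_at), Col3a1 at 8.46 and Lum at 6.65. Lamotrigine replicate 4 of the hippocampus was high for Col1a1 at 8.96 (1370864_at) and Slc22a8 at 4.59 (1385005_at), and replicate 5 was low for Dcn at 8.38. Arrays with a choroid plexus level above 7 held 4 of the values: Col3a1 at 6.996 on chow vehicle replicate 5 of the hippocampus, Col1a2 at 7.29 (1387854_at) on injection vehicle replicate 2 of the striatum, and the values of Col3a1 and of Eln 1388111_at on lamotrigine replicate 3 of the striatum given below. In the cortex, Slc6a13 was high at 5.82 on chow vehicle replicate 5 and Dpt low at 5.45 (1371732_at) on lamotrigine replicate 4. In the striatum, Col1a1 was high at 6.17 (1388116_at) on LiCl replicate 3 and Col3a1 high at 5.86 on lamotrigine replicate 3.

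For Eln 1388111_at the values were 5.59 on LiCl replicate 3 of the hippocampus and 5.61 on lamotrigine replicate 3 of the striatum. For Eln 1395753_at they were 5.07 on injection vehicle replicate 2 and 4.84 on chow vehicle replicate 2 of the hippocampus, and 4.81 on lamotrigine replicate 2 of the striatum.

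The LiCl effect differed between regions for Slc6a13 (adjusted p = 0.0291) and Eln 1388111_at (adjusted p = 1.42e-07) by the F test in limma.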

How the results depend on the processing

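The number of members called per comparison moved by more than 1.5 times under these settings. Leaving out probe sets with a mean under 6, which removes 8 of the 15 member probe sets, gave 1 for LiCl in the cortex, 0 for injection vehicle against chow vehicle in the hippocampus and in the cortex, 2 for cortex against hippocampus, 1 for striatum against hippocampus, 4 for cortex against striatum and 0 for a LiCl effect that differs between regions. With the interquartile range of each array as a covariate the counts were 0 for LiCl in the cortex, 0 for the vehicles in the hippocampus, 2 for cortex against striatum and 0 for the LiCl effect between regions. The 2 for cortex against striatum were the probe sets of Dpt, so the calls of Lum, Eln and the collagens ended there. For the vehicles in the hippocampus, quantile normalization gave 0, median centring 2 and array weights 2, and for the LiCl effect between regions quantile normalization gave 1. Chow vehicle arrays alone gave 3 for striatum against hippocampus and 4 for cortex against striatum, and injection vehicle arrays alone 4 for the latter. For the LiCl effect minus the lamotrigine effect in the hippocampus, no intensity trend, array weights and leaving out the 4 arrays outlying in choroid plexus markers gave 1 each, and in the cortex the 60-array fit gave 1. With the replicate number as a block, the vehicles in the hippocampus gave 0 (Eln 1388111_at, adjusted p = 0.0608). At most 1 of 5 same-numbered pairs of a comparison had r over 0.1, so no pairing by number was seen. With 5 pairs this check cannot exclude one. Without the animal block, Col1a1 1388116_at (adjusted p = 0.0605) and Col1a2 1387854_at (adjusted p = 0.0615) were lost between cortex and striatum. Leaving out 1 array at a time gave counts from 2 to 4 for LiCl in the cortex, 0 to 1 for the vehicles in the hippocampus and 1 to 2 in the cortex, 0 to 1 for the LiCl effect minus the lamotrigine effect in the hippocampus and in the cortex, and 1 to 3 for the LiCl effect between regions. Without every array above a choroid plexus level of 7, chosen after seeing the data, the vehicles in the hippocampus gave 0. No change called as reported turned its direction in these settings. Eln 1388111_at, not called as reported between cortex and hippocampus, was called in opposite directions in chow vehicle arrays alone (-0.26) and injection vehicle arrays alone (0.32). The causes were not tested.

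The number of all probe sets called also moved. LiCl in the cortex called 4164, but 1354 with quantile normalization, 0 with the interquartile range as a covariate, 6523 with array weights and 2094 to 3974 without 1 array. LiCl in the hippocampus called 73, against 154 in the 60-array fit, 27 with quantile normalization, 0 with the range as a covariate, 127 without an intensity trend, 471 with array weights, 256 without the 4 outlying choroid-high arrays, 1 without every array above 7, 28 with the replicate block and 5 to 256 without 1 array. LiCl in the striatum called 0, against 104 in the 60-array fit, 2 with the range, 3 without the trend, 53 with array weights and up to 8 without 1 array. A LiCl effect that differs between regions was called for 5348, against 2099 with quantile normalization, 8 with the range, 2756 without dim probe sets and 8453 with array weights. The vehicles differed for 5747 in the hippocampus, against 1230 with the range and 3475 without every array above 7, and for 2119 in the striatum, against 3466 in the 60-array fit and 4183 with array weights. The LiCl effect minus the lamotrigine effect was called for 0 in the hippocampus, against 10 in the 60-array fit, 1 without dim probe sets, 29 without the trend, 202 with array weights, 167 without the 4 choroid-high arrays and 4 without every array above 7, for 4 in the cortex, against 27 in the 60-array fit, 0 with quantile normalization, 2 with the range and 0 without the 4 choroid-high arrays, and for 0 in the striatum, against 3 in the 60-array fit and 1 with the range. Lamotrigine called 1 in the hippocampus, against 0 with the range, 0 with the replicate block and 0 without every array above 7, and 0 in the striatum, against 1 with array weights.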
